A study of Homo sapiens with 6 samples.

Results

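CYP2S1, a cytochrome P450, was examined together with the aryl hydrocarbon receptor (AHR), 2 genes of its feedback loop (AHRR and TIPARP) and 5 other P450 genes of the AHR response or of xenobiotic metabolism (CYP1A1, CYP1B1, CYP2J2, CYP2U1 and CYP3A5), which are 9 of the 57341 named genes counted. The set was chosen by the measured level of CYP2S1, selected on its counts being far higher under the label H295R-PM-Ptc+ than under H295R, so that its own difference is given as a description only, without a test. H295R is an established human adrenocortical carcinoma cell line, and H295R-PM-Ptc+ cells were isolated from it by flow cytometry for the Hedgehog receptor Ptch1 at the plasma membrane and then expanded. Both groups were grown in the same medium with no treatment, and RNA-seq gave 3 libraries from each. No ligand of AHR, drug or time course was part of the comparison, and the sorted population comes from a single line. Nothing in the labels says that the replicates are separate cultures, so p-values measure the spread between these libraries, which may be technical.

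AHR is a transcription factor of the bHLH-PAS family that waits in the cytoplasm with HSP90 and p23 (the product of PTGES3). Once bound by dioxins, polycyclic aromatic hydrocarbons or endogenous indoles it enters the nucleus, pairs with ARNT and binds response elements with the core GCGTG. CYP1A1, CYP1B1 and CYP2S1 are among the genes it induces, and so are its own inhibitors AHRR, which competes for ARNT and for the response element, and TIPARP, an ADP-ribosyltransferase that modifies AHR. The P450 enzymes are heme proteins that oxidize drugs, pollutants, fatty acids and steroids with electrons from POR. The adrenal cortex is best known for its steroidogenic P450 enzymes, which lie outside this set.

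Between 23264403 and 25813247 fragments were counted per library, and 16710 genes passed the filter on low counts and entered the quasi-likelihood F-test of edgeR. All 9 members passed it. Differences are given as log2 fold changes of the libraries labelled H295R-PM-Ptc+ over those labelled H295R, and levels as CPM, the counts scaled to a common library size with TMM factors. Over all tested genes 50.16% of the log2 fold changes were above 0. All 8 adrenocortical markers looked at, among them NR5A1, STAR and CYP17A1, passed the filter, with a summed level of 879.6 to 1160 CPM in the libraries labelled H295R and of 957.7 to 1216 CPM in the others. Of these 8, CYP21A2, the steroid 21-hydroxylase, rose by a log2 fold change of 0.88 (adjusted p = 0.0067 by edgeR), though its reads may be shared with its pseudogene, and the other 7 did not pass. DBH, PNMT, TTR, FGB, LUM, PTPRC and CD68, defining markers of chromaffin cells, hepatocytes, fibroblasts and immune cells, had no count in any library, and the endothelial and immune sums stayed below 0.28 CPM. The chromaffin sum was 0.787 to 0.809 CPM in the libraries labelled H295R and 1.04 to 1.53 CPM in the others, nearly all of it CHGA, the hepatocyte sum 31.7 to 37.5 against 27.0 to 33.6 CPM, mostly CPS1, and the fibroblast sum 8.07 to 9.38 against 9.16 to 11.02 CPM, mostly COL1A1. In bulk RNA, fewer cells of a type and less RNA per cell cannot be told apart.

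The sorted receptor itself went against the labels. PTCH1 stood at 18.5, 22.01 and 23.4 CPM in the libraries labelled H295R and at 9.70, 13.1 and 13.8 CPM in those labelled H295R-PM-Ptc+, which do not overlap (log2 fold change -0.81, SE 0.15, adjusted p = 0.0207 by edgeR). Without H295R replicate 2, H295R replicate 3 or H295R-PM-Ptc+ replicate 2 its adjusted p was 0.0799, 0.0921 and 0.0618. In the table of normalized values that accompanies the study, which was read only to check names, each column matched the deposited library of the other group name with the same replicate code. Differences taken under the names of that table therefore have the opposite sign of those given here. Both the level of PTCH1 RNA, in cells sorted for its protein, and the names of that table go against the deposited labels. The counts alone do not settle which names are right, so every direction below is that of the deposited labels. All directions would turn if the labels were exchanged, and CYP2S1 would then be lower in the sorted cells.

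The promoters of the members differ in whether they carry the letters of the AHR response element. They are shown for CYP2S1 and CYP1A1, P450 genes known to be induced by AHR, and for AHR and AHRR. CYP2S1 is the gene that chose the set, and of the others shown only AHRR passed edgeR's test without the block. The RefSeq table on GRCh38.p14 holds 11 start sites for 8 of the 9 members (CYP1B1 is the one without), and the 250 bases before each were searched for GCGTG on both strands (CACGC on the printed strand). The same letters also form part of some hypoxia response elements. The windows printed here, each 5′ to 3′ on the strand of its gene with a match in capitals, are chr19:41192969-41193218 (plus strand) for CYP2S1, chr7:17298402-17298651 (plus) for AHR, chr5:321464-321713 and chr5:322360-322609 (both plus) for the first and second start of AHRR, and chr15:74725529-74725778 (minus) for CYP1A1.
CYP2S1: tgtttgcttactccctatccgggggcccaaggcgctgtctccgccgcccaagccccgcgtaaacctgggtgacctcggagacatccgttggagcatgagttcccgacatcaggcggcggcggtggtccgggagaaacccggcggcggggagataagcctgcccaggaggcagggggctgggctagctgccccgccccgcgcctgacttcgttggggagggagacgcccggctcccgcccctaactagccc
AHR: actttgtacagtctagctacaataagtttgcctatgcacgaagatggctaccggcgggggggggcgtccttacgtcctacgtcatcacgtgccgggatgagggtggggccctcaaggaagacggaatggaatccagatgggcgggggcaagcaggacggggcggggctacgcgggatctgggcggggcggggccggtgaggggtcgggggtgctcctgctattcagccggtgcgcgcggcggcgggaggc
AHRR first start: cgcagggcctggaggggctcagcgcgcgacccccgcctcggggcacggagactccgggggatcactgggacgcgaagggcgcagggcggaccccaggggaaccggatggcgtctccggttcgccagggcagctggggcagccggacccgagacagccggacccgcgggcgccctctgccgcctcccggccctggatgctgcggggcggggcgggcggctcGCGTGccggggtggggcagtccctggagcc
AHRR second start: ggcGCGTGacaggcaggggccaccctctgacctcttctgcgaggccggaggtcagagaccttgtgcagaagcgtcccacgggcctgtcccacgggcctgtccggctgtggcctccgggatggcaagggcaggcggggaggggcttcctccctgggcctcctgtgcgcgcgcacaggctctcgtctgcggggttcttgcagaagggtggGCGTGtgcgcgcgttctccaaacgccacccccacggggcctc
CYP1A1: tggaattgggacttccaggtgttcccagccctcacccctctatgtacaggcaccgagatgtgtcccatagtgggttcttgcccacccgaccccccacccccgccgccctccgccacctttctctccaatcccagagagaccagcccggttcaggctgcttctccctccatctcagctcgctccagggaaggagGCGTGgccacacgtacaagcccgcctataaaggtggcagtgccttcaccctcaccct
The window of CYP1A1 held 1 match, which begins 57 bases before the start. AHRR held 1 match in its first window, 30 bases before the start, and 2 in its second, 247 and 42 bases before it. Of the members not printed, TIPARP held 2 matches in 1 of its 3 windows, both on the opposite strand, and CYP2J2 held 1. The windows of CYP2S1, AHR, CYP2U1 and CYP3A5 held none, which says only that these letters are not in the 250 bases before those starts. In all, 5 of the 11 windows carried the letters, against 32.2% of the 35116 windows of this length in the table. The CYP2S1 window is rich in G and C, at 69.6% of its bases against a median of 58% over all windows.

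CYP2S1 is an extrahepatic P450 of epithelia that is known to be induced through AHR and to metabolize retinoids and fatty acid peroxides. The gene lies on the plus strand of chromosome 19 (chr19:41193049-41207539, hg38). It gave 13, 8 and 11 counts in the libraries labelled H295R and 91, 58 and 70 in those labelled H295R-PM-Ptc+. In CPM these are 0.544, 0.315 and 0.445 against 3.56, 2.33 and 3.02. The lowest library of the second group thus stood well above the highest of the first, and the gene remained among the low ones in both. The mean was 0.435 ± 0.115 CPM (SD, n = 3) against 2.97 ± 0.615 CPM (SD, n = 3), a 6.80-fold difference with a log2 fold change of 2.77 (SE 0.27). The ratio was 6.54, 7.41 and 6.80 for replicates 1, 2 and 3, and leaving out any 1 library moved the log2 fold change between 2.58 and 2.95. The lower group rests on 8 to 13 counts per library.

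**Figure D1:**
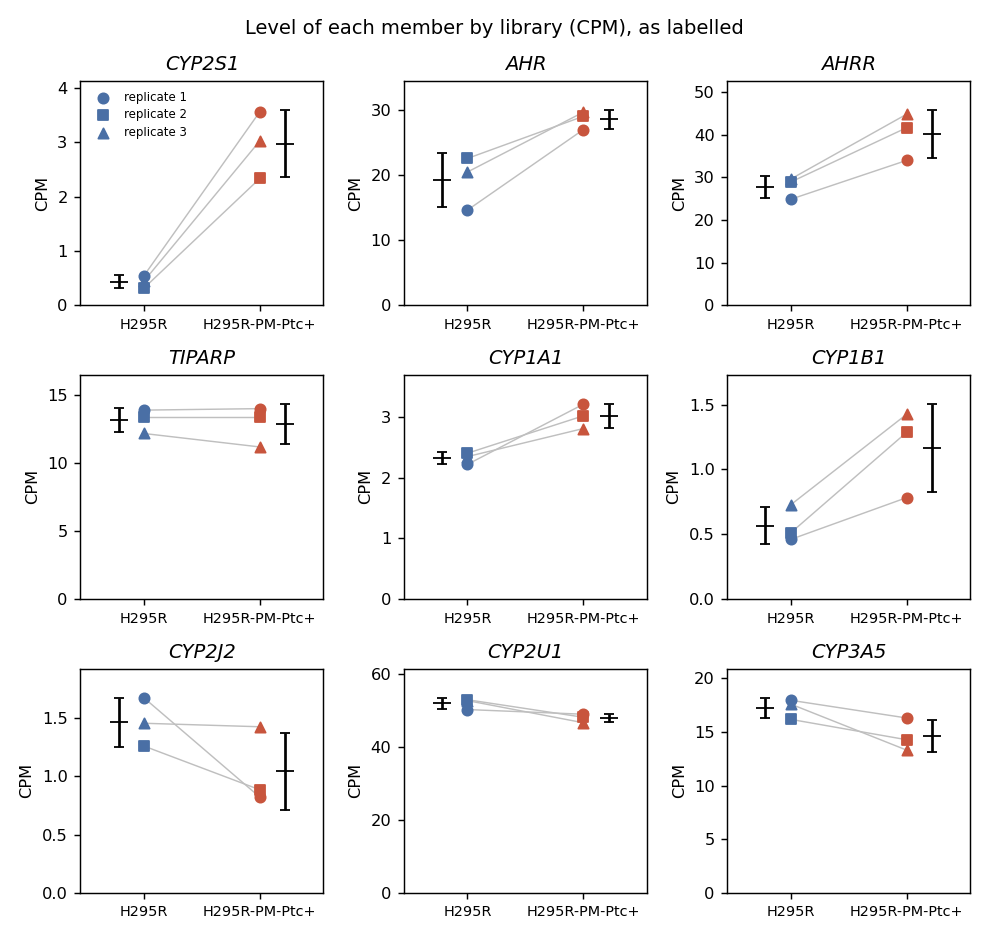
Level of each member in CPM (vertical axes, each from 0 and on its own scale) in the 3 libraries labelled H295R (blue) and the 3 labelled H295R-PM-Ptc+ (red), with symbols for the replicate number, gray lines joining equal numbers and black bars for mean ± SD. CYP2S1 went from 0.435 to 2.97 CPM, AHR, AHRR, CYP1A1 and CYP1B1 were higher in each H295R-PM-Ptc+ library than in any labelled H295R, and TIPARP overlapped.

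AHR, the receptor (chr7:17298622-17346152, plus strand), varied less than AHRR and TIPARP among the H295R-PM-Ptc+ labels and more than they did among the H295R labels, relative to its mean. Its level was 14.7, 22.6 and 20.5 CPM in the libraries labelled H295R and 27.0, 29.1 and 29.7 CPM in those labelled H295R-PM-Ptc+. The groups do not overlap, with H295R replicate 1 well below the rest. The mean was 19.2 ± 4.12 CPM (SD, n = 3) against 28.6 ± 1.404 CPM (SD, n = 3). The log2 fold change of 0.57 (SE 0.14) did not pass the threshold of 0.05 over all genes, with an adjusted p of 0.0702 by edgeR and an unadjusted p of 0.00343. It passed with the replicate number as a block (adjusted p = 1.14e-04), in DESeq2 (adjusted p = 0.0118), without the filter on low counts (adjusted p = 0.00275 by edgeR) and without H295R replicate 1 (log2 fold change 0.41, adjusted p = 0.0349 by edgeR).

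AHRR, the repressor that the receptor induces, was the only one of the 8 members other than CYP2S1 to pass the test. It stood at 24.9, 28.9 and 29.6 CPM in the libraries labelled H295R and at 34.0, 41.6 and 44.8 CPM in those labelled H295R-PM-Ptc+. The groups do not overlap, and the means were 27.8 ± 2.56 CPM (SD, n = 3) and 40.1 ± 5.57 CPM (SD, n = 3). AHRR rose by a log2 fold change of 0.53 (SE 0.12, adjusted p = 0.0434 by edgeR; 1.1e-05 with the replicate block). The call was narrow, with an adjusted p of 0.0516 in limma-voom, and without H295R replicate 1, 2 or 3 the adjusted p was 0.0568, 0.115 and 0.118. Without H295R-PM-Ptc+ replicate 2 or 3 the adjusted p was 0.155 and 0.178. The span of AHRR (chr5:304176-438291, plus strand) overlaps that of PDCD6 on the same strand. PDCD6 had 2707 to 3437 counts per library and a log2 fold change of 0.06 (adjusted p = 0.797 by edgeR). Fragments from sequence shared by AHRR and PDCD6 may be left out of both counts or be uncertain between them.

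TIPARP, the other feedback gene (chr3:156673235-156706770, plus strand), showed no such difference. It gave 13.9, 13.4 and 12.2 CPM in the libraries labelled H295R against 14.0, 13.4 and 11.2 CPM in the others, and the groups overlap. The log2 fold change was -0.03 (SE 0.12, adjusted p = 0.933 by edgeR), and replicates with the same number lay within a ratio of 0.919 to 1.01 of each other.

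The family 1 enzymes, the classical targets of AHR, were present at low level. CYP1A1 (chr15:74719542-74725610, minus strand), which oxidizes polycyclic aromatic hydrocarbons, gave 53, 61 and 58 counts in the libraries labelled H295R against 82, 75 and 65 in those labelled H295R-PM-Ptc+. In CPM this was 2.32 ± 0.0941 (SD, n = 3) against 3.01 ± 0.200 (SD, n = 3). The groups do not overlap, but the log2 fold change of 0.37 (SE 0.15) did not pass the test, with an adjusted p of 0.241 by edgeR and of 0.112 with the replicate block.

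CYP1B1 (chr2:38066973-38109902, minus strand), which hydroxylates estradiol as well as polycyclic hydrocarbons, gave 11, 13 and 18 counts in the libraries labelled H295R against 20, 32 and 33 in those labelled H295R-PM-Ptc+. In CPM this was 0.567 ± 0.142 (SD, n = 3) against 1.16 ± 0.338 (SD, n = 3), and the groups do not overlap. The log2 fold change of 1.02 (SE 0.31) was the largest of the members after CYP2S1, yet it did not pass without the block (adjusted p = 0.121 by edgeR) and passed with it (adjusted p = 0.0129). On the opposite strand its span is overlapped by CYP1B1-AS1, with 13 to 33 counts per library, and by RMDN2, with 198 to 252.

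The remaining members, CYP2U1, CYP3A5 and CYP2J2, had fitted log2 fold changes below 0, and none passed edgeR's test without the block. CYP2U1 (chr4:107931369-107953457, plus strand), a fatty acid hydroxylase, stood at 50.2, 52.9 and 52.7 CPM in the libraries labelled H295R and at 48.9, 48.1 and 46.6 CPM in the others. These do not overlap, though the distance between them is small, with a log2 fold change of -0.12 (SE 0.07, adjusted p = 0.443 by edgeR). CYP3A5 (chr7:99648194-99679998, minus strand), which metabolizes many drugs and steroids, had 17.96, 16.2 and 17.6 CPM in the libraries labelled H295R against 16.3, 14.3 and 13.3 CPM. Its groups overlap, and its log2 fold change of -0.24 (SE 0.10) had an adjusted p of 0.292 by edgeR and of 0.0427 with the replicate block. CYP2J2 (chr1:59893308-59926790, minus strand), an epoxygenase of arachidonic acid, gave 40, 32 and 36 counts in the libraries labelled H295R against 21, 22 and 33. Its log2 fold change of -0.49 (SE 0.26) had an adjusted p of 0.389 by edgeR, and H295R-PM-Ptc+ replicate 3 lay within the range of the first group.

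**Figure D2:**
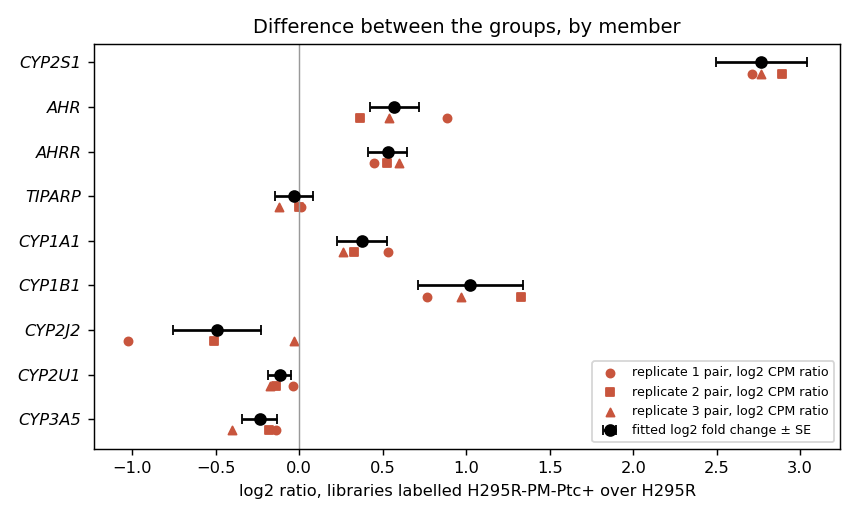
Log2 ratio of the libraries labelled H295R-PM-Ptc+ over those labelled H295R for each member (horizontal axis), with the fitted log2 fold change ± SE in black and the ratio of each pair of equal replicate numbers in red. CYP2S1 lies at 2.77, apart from the other 8 members, which lie between -0.49 and 1.02.

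Of the 8 members other than CYP2S1, 1 passed the test, against 3.73% of all tested genes in either direction (2.42% higher and 1.32% lower). With the replicate block 4 of these 8 passed (AHR, AHRR and CYP1B1 higher, CYP3A5 lower under the label H295R-PM-Ptc+), where 22.5% of all tested genes did. The groups did not overlap for 5 of the 8, against 23.5% of all tested genes. The members were drawn up with results of this contrast known, so these counts describe the set and are no evidence about it.

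Levels can be compared between genes only per length. The length used was the exonic length annotated for each gene name, which can exceed that of the transcript expressed. The order and percentiles below depend on it. On the scale of CPM per kilobase CYP2U1 was the highest member in both groups, at 8.52 in the libraries labelled H295R and 7.86 in the others, without overlap with the next gene. AHRR followed at 3.62 and 5.23, then AHR at 2.89 and 4.30. AHRR and AHR overlapped in both groups, and AHR overlapped TIPARP (2.61) only in the libraries labelled H295R, while TIPARP and CYP3A5 overlapped in both. CYP2S1 was the eighth of the 9 in the libraries labelled H295R, at 0.151, where it overlapped CYP1B1 (0.0942). It was the sixth under the label H295R-PM-Ptc+, at 1.03, where it overlapped CYP1A1 (0.877). Averaged over all libraries the level of CYP2S1 per kilobase lay at the 16.1 percentile of the tested genes, that of CYP1B1 at the 3.65 percentile and that of CYP2U1 at the 65.3 percentile.

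CYP2S1 lies at the end of the CYP2 gene cluster of chromosome 19, and the genes around it were mostly a little higher in the same libraries. Within 1 Mb on each side (chr19:40193049-42207539) 37 of the 38 other tested genes had a log2 fold change above 0, and the median of the 38 was 0.31. Of these, 4 passed the test as higher, against 2.42% of all tested genes, and none as lower. With the replicate block 22 passed, all higher, against 12.1% of all genes. CYP2S1 itself lay 2.45 above the median of its neighbors on the log2 scale, and 1 neighbor, CD79A, lay above it. The count of genes above 0 fell to 33 without H295R replicate 2, and the median lay between 0.24 and 0.36 whichever library was left out. It was 0.25 in a window of 0.5 Mb, with 16 of 17 genes above 0, and 0.27 in a window of 2 Mb, with 72 of 77. Without the filter on low counts 55 of 67 genes were above 0, with a median of 0.32. The number of gene copies was not measured.

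Among the neighbors that passed was AXL, a receptor tyrosine kinase for GAS6 whose start lies 11.7 kb beyond the end of CYP2S1 (chr19:41219203-41261766, plus strand). AXL gave 9, 18 and 19 counts in the libraries labelled H295R against 76, 79 and 86 in those labelled H295R-PM-Ptc+. That is 0.618 ± 0.211 CPM (SD, n = 3) against 3.29 ± 0.383 CPM (SD, n = 3), with no overlap. AXL rose by a log2 fold change of 2.39 (SE 0.25, adjusted p = 0.00132 by edgeR) and passed whichever library was left out, with an adjusted p of at most 0.0101. Farther out, PCAT19, a long non-coding RNA, rose by 0.96 (adjusted p = 0.0133 by edgeR) and CCDC97 by 0.38 (adjusted p = 0.0189 by edgeR). Without H295R replicate 2 or 3 the adjusted p was 0.0625 and 0.0530 for PCAT19 and 0.0756 and 0.0962 for CCDC97, and without H295R-PM-Ptc+ replicate 2 or 3 it was 0.0694 and 0.0552 for PCAT19 and 0.0929 and 0.122 for CCDC97. ITPKC, an inositol trisphosphate kinase, had the fifth smallest adjusted p, at 0.0526 by edgeR (1.82e-04 with the block, 0.0118 in DESeq2) with a log2 fold change of 0.49.

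CD79A, the B cell receptor subunit that lay above CYP2S1, varied widely among the libraries labelled H295R-PM-Ptc+. It had 11, 11 and 12 counts in the libraries labelled H295R against 169, 52 and 33 in the others, a log2 fold change of 2.87 (SE 0.62, adjusted p = 0.0409 by edgeR). CD79A did not pass in limma-voom (adjusted p = 0.089), and passed in DESeq2 (adjusted p = 2.99e-06) and with the block (adjusted p = 9.74e-06 by edgeR). Without H295R-PM-Ptc+ replicate 1, the highest library, the log2 fold change was 1.92 (adjusted p = 0.0147 by edgeR). The adjusted p was 0.0541, 0.138 and 0.136 without H295R replicates 1, 2 and 3 and 0.0540 without H295R-PM-Ptc+ replicate 2. The immune markers PTPRC and CD68 were at 0 in all libraries.

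The other P450 genes of the cluster were close to silent. CYP2A6, CYP2A7, CYP2A13, CYP2B6 and CYP2F1, which serve mainly liver and airway, had at most 2 counts in any library. Of the other named genes and pseudogenes of the cluster only the pseudogene CYP2B7P passed the filter, with 29 to 52 counts per library and a log2 fold change of 0.08 (adjusted p = 0.92 by edgeR). Reads of such close relatives may be shared among copies, since the primary position of multiply mapped reads was counted.

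**Figure D3:**
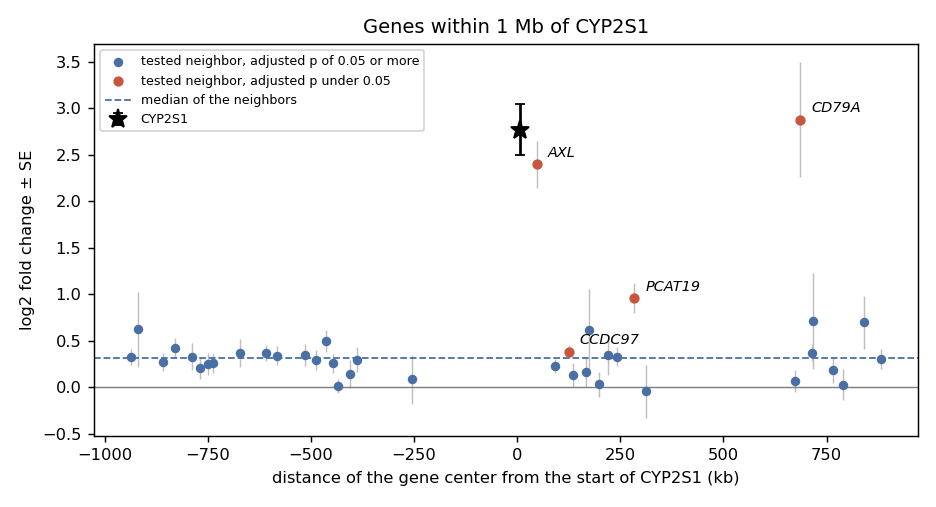
Log2 fold change ± SE (vertical axis) of the 38 tested genes within 1 Mb of CYP2S1 against the distance of each gene's center from the start of CYP2S1 in kb (horizontal axis), with genes that passed the test in red, the others in blue, CYP2S1 as a black star and the median of the neighbors (0.31) as a dashed line. AXL (2.39) and CD79A (2.87) lie near the level of CYP2S1 (2.77), and 37 of 38 lie above 0.

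The windows around the remaining members were mostly centered near 0. Around AHRR 17 of 19 tested neighbors were above 0, with a median of 0.20, and around AHR, which has only 4 tested neighbors, the median was 0.04. The medians around TIPARP, CYP1A1, CYP1B1, CYP2J2, CYP2U1 and CYP3A5 lay between -0.11 and 0.03. AHRR lay 0.33 above the median of its neighbors, and CYP1B1 lay 1.06 above that of its 22.

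Of the 11 partners and chaperones of AHR looked at none passed edgeR's test, against 2 with an unadjusted p under 0.05 and 1 in DESeq2. With the replicate block 4 of the 11 passed as higher, against 12.1% of all tested genes. The median log2 fold change of the 11 was 0.05. ARNT, the partner through which AHR binds DNA, stood at 75.3 ± 2.12 CPM (SD, n = 3) in the libraries labelled H295R and at 73.2 ± 1.66 CPM (SD, n = 3) in the others. Its paralog ARNT2 stood at 30.1 ± 1.69 against 37.5 ± 2.14 CPM (SD, n = 3 each), or 0.32 on the log2 scale, with an adjusted p of 0.0717 by edgeR and of 0.00127 with the replicate block. For NCOA3, a coactivator, the log2 fold change was 0.46 (adjusted p = 0.0856 by edgeR, 9.69e-06 with the block, 0.0266 in DESeq2, 0.0419 by edgeR without H295R-PM-Ptc+ replicate 1). PTGES3, HSP90AA1 and HSP90AB1, its chaperones in the cytoplasm, lay between -0.10 and 0.05.

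Further genes known to be induced by AHR were few. Of 10 looked at 4 were tested, and none passed edgeR's test (1 with an unadjusted p under 0.05, none in DESeq2). With the block 1 was higher, against 12.1% of all tested genes. All 4 log2 fold changes were above 0, against 50.16% of all tested genes, with a median of 0.14. NQO1, a quinone reductase, stood at 178.0 ± 20.5 CPM (SD, n = 3) against 182 ± 4.33 CPM (SD, n = 3), and NFE2L2, the regulator of the antioxidant response, had a log2 fold change of 0.07. For SLC7A5, an amino acid transporter, the log2 fold change was 0.25 (adjusted p = 0.233 by edgeR, 0.00819 with the block), and IDO1, which makes the AHR ligand kynurenine, one of 0.20 (adjusted p = 0.619 by edgeR). Of the 6 not tested, UGT1A1, a bilirubin glucuronosyltransferase, had 0, 0 and 1 counts under the label H295R against 19, 7 and 11, without overlap. It shares exons with the other UGT1A genes, and fragments of these exons may be left out of the counts or be uncertain among the genes. SERPINB2 had 16, 5 and 2 counts against 3, 1 and 7, CYP1A2 at most 3 per library, ALDH3A1 at most 9, and EREG and UGT1A6 none.

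Outside the members, P450 genes of families 1 to 4 were largely not detected. Of 29 looked at 22 were not tested, 8 of these without any count and none with more than 11 counts in a library, among them CYP3A4 with at most 8 and CYP2D6 with at most 11. The 7 tested ones had a median log2 fold change of 0.08 and none passed edgeR's test, with none at an unadjusted p under 0.05, in DESeq2 or with the block. CYP4V2, a fatty acid hydroxylase of the eye and other tissues, stood at 9.34 ± 0.664 CPM in the libraries labelled H295R and 10.4 ± 0.875 CPM in the others (SD, n = 3 each). CYP2E1, CYP2C8, CYP2R1 (a vitamin D hydroxylase) and CYP4X1 averaged 4.70, 3.91, 3.55 and 1.12 CPM in the libraries labelled H295R against 4.50, 4.79, 3.43 and 1.18 CPM. CYP2W1 did not overlap between the groups, with 15, 11 and 15 against 26, 17 and 20 counts (log2 fold change 0.62, adjusted p = 0.299 by edgeR), and for CYP3A7 the log2 fold change was -0.33 (adjusted p = 0.7505 by edgeR).

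Among the genes for electron transfer and heme synthesis, none of 15 passed edgeR's test (2 at an unadjusted p under 0.05, none in DESeq2). With the block 1 was higher and 1 lower, against 12.1% and 10.4% of all tested genes. The median log2 fold change of the 15 was -0.01. CYB5A, PGRMC1 and FECH did not overlap between the groups, where 23.5% of all tested genes did not. POR, the reductase that feeds the microsomal P450 enzymes, differed by 0.08 on the log2 scale (adjusted p = 0.696 by edgeR). With the block PGRMC1, a heme-binding partner of P450 enzymes, was lower (log2 fold change -0.19, adjusted p = 0.00481 with the block and 0.182 without) and FECH, which inserts iron into heme, higher (0.18, adjusted p = 0.0173 with the block and 0.259 without). CYB5A had a log2 fold change of -0.10 and CYB5R3 of 0.15.

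The bHLH-PAS and PAS genes related to AHR held all 3 list genes that passed. Of the 12 tested, 2 were higher and 1 was lower under the label H295R-PM-Ptc+, against 2.42% and 1.32% of all tested genes, and the median of the 12 was 0.12. An unadjusted p under 0.05 was reached by 5, DESeq2 called 3, and with the block 5 were higher and 2 lower, against 12.1% and 10.4% of all tested genes. EPAS1 (HIF-2 alpha), a hypoxia factor that also pairs with ARNT, stood at 7.03, 7.05 and 7.08 CPM in the libraries labelled H295R and at 11.2, 17.4 and 14.7 CPM in the others. It rose by a log2 fold change of 1.03 (SE 0.16, adjusted p = 0.00903 by edgeR), with an adjusted p of 0.0544 without H295R replicate 3. NPAS3, a neuronal member of the family, stood at 3.85, 4.88 and 4.65 CPM against 1.76, 2.33 and 2.25 CPM. Its log2 fold change was -1.08 (SE 0.17, adjusted p = 0.0115 by edgeR), with an adjusted p of 0.0560 without H295R replicate 2 and of 0.0578 without H295R replicate 3. The groups do not overlap for either gene.

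NPAS2, a clock gene, passed narrowly at a log2 fold change of 0.39 (adjusted p = 0.0490 by edgeR), and leaving out any library but H295R replicate 1 gave an adjusted p between 0.112 and 0.180. NPAS1 differed by 0.72 on the log2 scale (adjusted p = 0.131 by edgeR, 0.00136 with the block, 0.0460 without H295R replicate 1). HIF1A, the other main hypoxia factor, stood at 668 ± 66.9 CPM (SD, n = 3) against 723 ± 22.9 CPM (SD, n = 3), a log2 fold change of 0.12 (adjusted p = 0.588 by edgeR).

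Nuclear receptors for xenobiotics were almost absent, with at most 3 counts per library for NR1I2 (PXR) and 1 for NR1I3 (CAR). Their partners RXRA and RXRB had log2 fold changes of -0.20 and 0.09, and PPARA one of 0.19. None of these 3 passed edgeR's test, with none at an unadjusted p under 0.05 or in DESeq2, and RXRA passed as lower with the block (adjusted p = 0.0203). Of the 3 tested epoxide hydrolases, which act on the products of P450 epoxidation, none passed edgeR's test (1 at an unadjusted p under 0.05, none in DESeq2). With the block 1 was higher, against 12.1% of all tested genes. EPHX1 stood at 364 ± 12.6 CPM (SD, n = 3) against 421 ± 4.64 CPM (SD, n = 3), with a log2 fold change of 0.21 (adjusted p = 0.161 by edgeR, 0.00175 with the block), while EPHX2 and EPHX4 had 0.27 and 0.47 (adjusted p = 0.698 and 0.569 by edgeR).

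**Figure D4:**
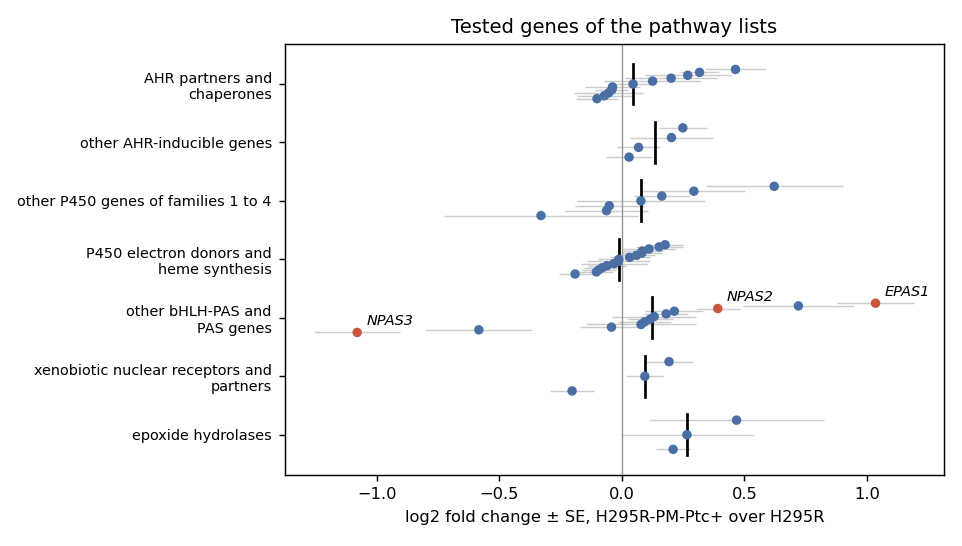
Log2 fold change ± SE (horizontal axis) of each tested gene in the 7 lists around the AHR pathway and the P450 enzymes, with a black bar for the median of a list, red points for genes that passed the test and blue for the others. Of 55 genes 3 passed, all in the list of bHLH-PAS and PAS genes, with EPAS1 at 1.03 and NPAS3 at -1.08.

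Over the 7 lists together 3 of 55 tested genes passed, which is 5.45% against 3.73% of all tested genes. With the replicate block 16 passed, which is 29.1% against 22.5%.

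The genes whose pattern over the 6 libraries was most like that of CYP2S1 were FUCA1, HIST1H1C, CTAG2, TSPAN11 and RASSF5, with a Pearson r of log2 CPM of 0.997 to 0.999. The 6 points are 2 groups of 3, and 739 genes of the 16710 tested had an r over 0.9. These values only describe likeness over the 6 libraries and were not tested. The ranking does not weigh the size of a difference: TSPAN11, a tetraspanin, averaged 1.58 CPM against 16.1 CPM, and FUCA1, a lysosomal fucosidase, 22.9 CPM against 31.2 CPM. AHR was most like NSF, SCG3 and DOCK4, with an r of 0.995 to 0.998 and 526 genes over 0.9. All 3 were lowest in H295R replicate 1, as AHR was, at 76.4 CPM for NSF, 0.670 CPM for SCG3 and 2.80 CPM for DOCK4.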

How the data were processed

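RNA of 3 libraries labelled H295R and 3 labelled H295R-PM-Ptc+ was read in pairs on strand-specific libraries. Mapping to hg38 was done by the authors with STAR (2.4.0a in the submitters' processing notes), who counted fragments per gene name with featureCounts of Subread (1.5.0-p3 in those notes) with a strand option, and deposited the raw counts without normalization. These were whole numbers, and 1 row without a gene name (0 counts) was left out.

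Counts were filtered with filterByExpr, scaled by TMM and fitted in edgeR 4.0.16 (glmQLFit and glmQLFTest, two-sided, group only) under R 4.3.3, p-values being adjusted by Benjamini-Hochberg over the 16710 genes, with a threshold of 0.05. SEs come from the same fit. The procedure was run on simulated counts of independent libraries, without the pairing described below, so that run does not cover this feature of the data. Alternatives were the replicate number as a block, DESeq2 1.42.0, voom of limma 3.58.1, RLE factors, no filter, at least 10 counts in every library, leaving out each library, and windows of 0.5 and 2 Mb around CYP2S1 in place of 1 Mb. Same-numbered libraries of the 2 groups share a code in the column names (1801, 3001 and 3101), whose meaning is not stated. They also deviated together (r across genes was 0.497 for replicate 1, 0.307 for replicate 2 and 0.228 for replicate 3, other pairings giving -0.352 to 0.15). The codes and these values pair the samples. The main fit leaves this pairing out, and the replicate block takes it in.

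The members, lists and rules were chosen with earlier results of these data known. Named were the members, PTCH1, in each list up to 4 genes of smallest adjusted p, list P450 genes over 1 CPM, in the window of CYP2S1 the 5 of smallest adjusted p, and the 5 and 3 genes most like CYP2S1 and AHR (prior count of 2). ARNT, HSP90AA1, HSP90AB1, POR, HIF1A, PDCD6, CYP21A2, the untested list genes and the other genes of the CYP2 cluster were named after their values were seen. 1 list gene is not reported here by name. Promoter sequences are from RefSeq (GRCh38.p14, the build of the files).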

Additional observations from a re-analysis of the deposited data

How the results depend on the processing

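The 624 genes that passed became 3758 with the replicate block and 1111 without the filter on low counts (of 30966 genes in place of 16710), and 219 to 810 when a library was left out (278 and 219 without H295R replicates 2 and 3, 247 and 257 without H295R-PM-Ptc+ replicates 2 and 3). Of the 9 members, counting CYP2S1 whose pass was fixed by how the set was chosen, 2 passed, 5 with the replicate block, 1 in limma-voom, 1 of 8 where every library needed 10 counts (which leaves CYP2S1 out) and 1 to 2 when a library was left out, 1 without each of the 4 libraries just named. Of the list genes 3 passed, 16 with the block, 6 without the filter (of 78 in place of 55) and 0 to 5 when a library was left out, with 5, 1 and 0 without H295R replicates 1, 2 and 3. The block ended no call of a member and added AHR, CYP1B1 and CYP3A5. TIPARP ranged from -0.10 to 0.0495 when a library was left out, being above 0 without H295R replicate 1 (0.0091) or H295R-PM-Ptc+ replicate 3 (0.0495), with an adjusted p over 0.9 in both, and every other member kept its direction under all alternatives that could be fitted. The cause of these changes was not tested. The median around CYP2S1 moved by less than its spread over pairs. Depth limits CYP2S1, CYP1B1, CYP2J2 and CYP1A1, with fewer than 100 counts in each library. No group of 3 is large enough for an exact permutation test below p = 0.1.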
